A study of Mus musculus with 2 samples.

Results

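The genes examined here are 9 genes that set muscle mass and drive muscle atrophy, Foxo1, Foxo3, Fbxo32, Fbxo40, Trim63, Trim54, Trim55, Mstn and Acvr2b, chosen by name from 22380 annotated protein-coding genes. Mbnl2 HITS-CLIP tags on the strand of each gene were counted across its body and split by 3′ UTR, coding sequence and intron in the mm9 GENCODE annotation. The 9 genes held 214 of 820097 tags, 52 from WT and 162 from *Mbnl1* KO muscle. In HITS-CLIP, ultraviolet light fixes a protein to RNA in direct contact with it, RNase A trims what is exposed, and the fragments that come down with the protein are sequenced as tags. The tissue was quadriceps muscle of 3 WT and 3 Mbnl1-/- mice, 15 to 16 weeks old, immunoprecipitated with the Mbnl2 antibody mAb 3B4 after digestion at 38.6 or 0.0386 U/ml RNase A. The knockout is of Mbnl1 in all cells, and the Mbnl2 gene is intact. The labels give C57BL/6 as strain, but the methods name a mixed background for the mice crossed to make compound knockouts. The 3 mice of a genotype are merged in 1 table, so there is no measure of the spread between mice, and the genotypes were described and not tested.

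In wasting muscle the FOXO transcription factors, held in the cytoplasm by insulin and growth factor signalling, enter the nucleus and switch on ubiquitin ligases that mark muscle proteins for the proteasome. Fbxo32 (atrogin-1) and Trim63 (MuRF1) are the classical ligases of this programme. Myostatin, the product of Mstn, restrains muscle growth through the activin receptor encoded by Acvr2b. Mbnl2 is a paralogue of Mbnl1, and both proteins bind pyrimidine-flanked GC steps in RNA, in introns beside regulated exons and in 3′ UTRs.

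Depth differed between the tables, with 343554 tags (5176203 reads) in WT and 476543 (50329234 reads) in *Mbnl1* KO, identical tags included. Levels are therefore given as tags per 1000000 tags of the table. Single-base tags, meaning tags with 1 base at 70% or more of their reference sequence, made up 44.0% of WT and 17.0% of *Mbnl1* KO tags on assembled chromosomes, and 79.0% and 59.5% of tags rested on 1 read. All 8 muscle fibre markers listed (such as Ttn and Ckm) had tags, 2378 per 1000000 in WT and 6050 in *Mbnl1* KO. The 12 markers of other cells also each had at least 1 tag, 536 and 1255 per 1000000 in all, mostly at Col1a1 (123 WT and 471 *Mbnl1* KO tags). Not all of them went the same way, since Ptprc was at 26.2 per 1000000 in WT and 12.6 in *Mbnl1* KO, Adgre1 at 20.4 and 8.39, and Pecam1 at 46.6 and 37.8, whereas Cdh5, like Pecam1 an endothelial marker, was at 37.8 and 115. Of the satellite cell markers, Pax7 was at 20.4 and 23.1 and Myf5 had 1 WT and 0 *Mbnl1* KO tags. The part that differences in cell makeup play in the ratios was not tested. The exon of Mbnl1 with the start codon (exon 2) had 5 WT and 2 *Mbnl1* KO tags, and annotated exon 3 had 0 and 4 (ratio from 0.476 upward). The allele is named for exon 3, but where the deletion lies in mm9 is not given in the sources used here, and these tags are too few to check the genotype labels.

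Most members carried few tags. WT tags numbered 20 at Foxo1, 14 at Foxo3, 5 each at Fbxo32 and Trim55, 3 each at Fbxo40 and Trim63, 1 each at Mstn and Acvr2b and 0 at Trim54. *Mbnl1* KO tags numbered 43 at Foxo3, 41 at Foxo1, 31 at Fbxo40, 16 at Fbxo32, 15 at Trim55, 8 at Trim63, 5 at Acvr2b, 2 at Trim54 and 1 at Mstn. These are numbers per gene body, and the bodies run from 6417 nt (Mstn) to 94915 nt (Foxo3). Over the gene body Foxo1 had 58.2 tags per 1000000 in WT (95% Poisson interval 35.6 to 89.9) and 86.0 in *Mbnl1* KO (61.7 to 117), and Foxo3 40.8 (22.3 to 68.4) and 90.2 (65.3 to 122).

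Levels per length of exon take gene length into account. The annotated 3′ UTR runs from 0 nt at Trim55 and 40 nt at Acvr2b to 4729 nt at Foxo3. The exons compared are therefore not alike in makeup. Tags per kb of exon and 1000000 tags in *Mbnl1* KO were 8.37 (5.24 to 12.7) at Fbxo40, 6.70 (interval from 4.25) at Foxo3 and 5.67 (3.17 to 9.35) at Foxo1, with overlapping intervals. Then came 2.22 (0.457 to 6.47) at Trim63, and the other 5 genes had at most 1 exonic tag each. In WT the exon density was 3.07 (0.634 to 8.98) at Trim63, 2.10 (0.571 to 5.37) at Foxo1, 2.02 (0.656 to 4.71) at Foxo3 and 1.58 (0.326 to 4.63) at Fbxo40, and all these intervals overlapped. The *Mbnl1* KO/WT ratio of exonic tags was 5.29 (1.59 to 27.6) at Fbxo40, 3.32 (1.23 to 11.2) at Foxo3, 2.70 (0.861 to 11.2) at Foxo1 and 0.721 (0.0966 to 5.38) at Trim63.

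**Figure D1:**
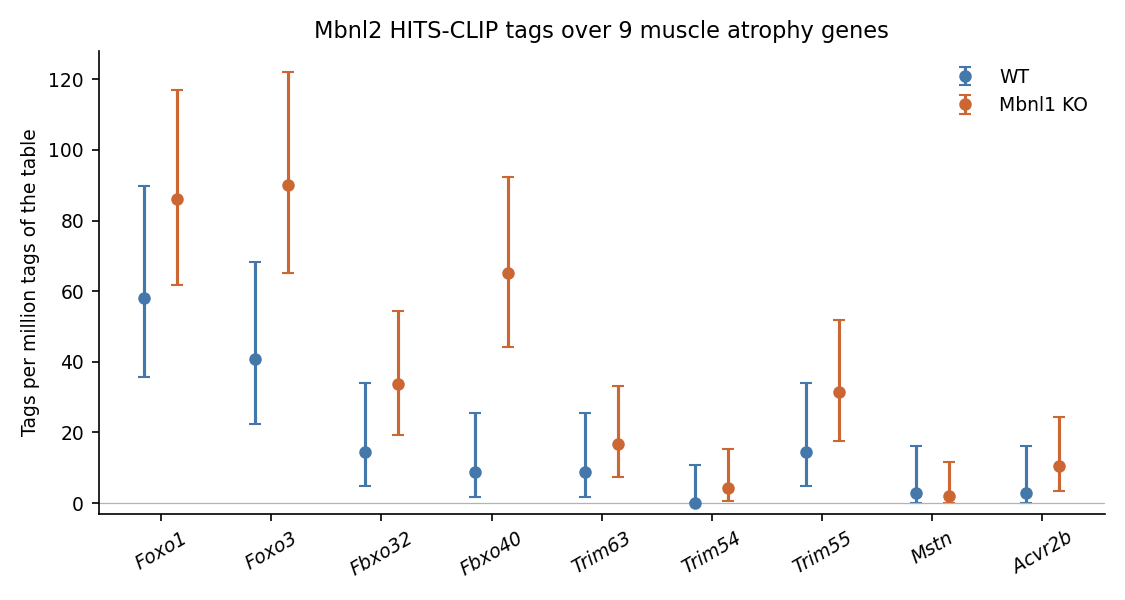
Tags per 1000000 tags of the table across each of the 9 gene bodies, WT and *Mbnl1* KO, with exact 95% Poisson intervals that cover counting error only (1 merged table per genotype). Values are per gene body and not per length. Foxo1 and Foxo3 had most tags in both tables, and the intervals of the genotypes were apart only at Fbxo40, 8.73 in WT (1.80 to 25.5) and 65.1 in *Mbnl1* KO (44.2 to 92.3), 1 of the 5 members with at least 20 tags, beside 25.8% of all genes with that many.

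Levels were compared between the tables as an *Mbnl1* KO/WT ratio scaled by the tags in each table. Each ratio is given with a 95% interval, made from the exact Clopper-Pearson limits of the share of tags that were *Mbnl1* KO. These intervals reflect counting error alone and so set one library against the other rather than the genotypes. In bulk muscle, more Mbnl2 on each transcript, whether or not the muscle holds more Mbnl2 protein, cannot be told apart from more transcript or from more cells that hold it. The 9 genes together had a ratio of 2.25 (1.63 to 3.13), and all protein-coding genes together 1.61 (1.60 to 1.63). With single-base tags left out these were 1.74 (1.24 to 2.48) and 1.39, which lies inside the member interval. Of the 5 members with at least 20 tags, 2 (Foxo3 and Fbxo40) had an interval above 1, and 38.6% of the 3888 protein-coding genes with that many tags did. At least 2-fold higher in *Mbnl1* KO were 4 of the 5, beside 41.6% of all such genes, and the median ratio was 2.21 in the members and 1.75 over all genes. With single-base tags left out, 1 of 3 members with at least 20 tags (Fbxo40) had an interval above 1, beside 26.5% of all genes, and with tags of at least 2 reads 0 of 2, beside 18.7%. With both filters it was 0 of 2, beside 11.1%, and after thinning of the *Mbnl1* KO reads to the number in WT 1 of 2 (Foxo3), beside 57.4%. At a minimum of 10 tags it was 2 of 6, beside 27.7%. Without scaling it was 5 of 5, beside 59.2%, when scaled by the median gene 1 of 5 (Fbxo40), beside 11.8%, and with tags of at least 25 nt 3 of 3 (Foxo1, Foxo3 and Fbxo40), beside 63.0%. Trim55, with 20 tags, was just inside the minimum and Trim63, with 11, just outside it. Tags on the opposite strand of the 9 genes numbered 27 from WT and 25 from *Mbnl1* KO, a ratio of 0.668 (0.372 to 1.19). Of them, 8 at Foxo1 and 7 at Foxo3 were single-base tags, a kind more frequent in WT. On the gene strand, 7 WT and 3 *Mbnl1* KO tags of the 9 genes were, so the strands are not alike in this.

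**Figure D2:**
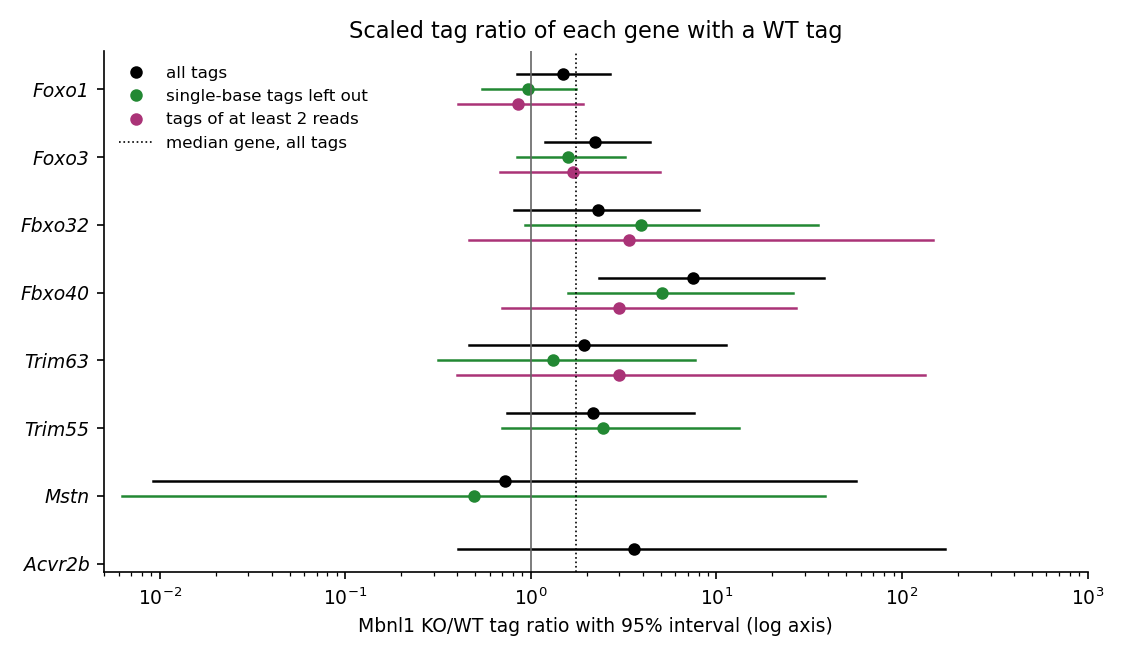
Scaled *Mbnl1* KO/WT tag ratio with its 95% Clopper-Pearson interval on a log axis, for all tags, with single-base tags left out and for tags of at least 2 reads, at members with a WT tag under that setting (a ratio of 0, at Mstn with tags of at least 2 reads, is not drawn on a log axis). The interval of Fbxo40 lay above 1 with all tags (2.32 to 38.1) and without single-base tags (1.59 to 26.0), and included 1 with tags of at least 2 reads (0.702 to 26.8).

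Foxo1 and Foxo3 encode the FOXO factors most studied in muscle. Foxo3 (ENSMUSG00000048756.4, chromosome 10 from 41901647 to 41996561, minus strand) had 14 WT and 43 *Mbnl1* KO tags (ratio 2.21, 1.19 to 4.38). Foxo1 (ENSMUSG00000044167.5, chromosome 3 from 52072259 to 52154031, plus strand) had 20 WT and 41 *Mbnl1* KO tags (ratio 1.48, 0.846 to 2.66), an interval that includes 1. Tags of a single read were 8 of 14 in WT and 16 of 43 in *Mbnl1* KO at Foxo3, and 9 of 20 and 16 of 41 at Foxo1. With single-base tags left out the ratios were 1.59 (0.837 to 3.23) at Foxo3 and 0.959 (0.546 to 1.74) at Foxo1, so neither interval then lay above 1.

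Tags of both genes lay in introns and in the 3′ UTR. The 3′ UTR of Foxo3, in exon 4 of 4, held 4 WT and 22 *Mbnl1* KO tags (ratio 3.97, 1.35 to 15.8), whereas its introns held 9 and 20, a ratio of 1.60 (0.697 to 4.00). The 3′ UTR of Foxo1, in exon 3 of 3, held 4 and 12 tags, a ratio of 2.16 (0.655 to 9.20), and its introns 16 and 26, a ratio of 1.17 (0.605 to 2.34). Intervals of the 3′ UTR and the introns overlapped at both genes. Per kb of 3′ UTR and 1000000 tags, Foxo3 had 2.46 tags in WT and 9.76 in *Mbnl1* KO, and Foxo1 3.72 and 8.05.

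The intronic tags of both genes lay almost all in 1 long intron. Intron 1 of Foxo1 held 16 WT and 25 *Mbnl1* KO tags, and intron 2 of Foxo3 held 9 and 17, with 0 and 3 more in intron 3. At most 1 of them lay near an exon, a Foxo1 tag within 300 nt. Each of these introns had 1 place with 3 overlapping tags, shown with the same 4-base motifs marked as for the 3′ UTRs below: CGCC or CGCT with C first, TGCC or TGCT with T first.
Foxo1 intron 1, chr3:52079045-52079074: tgagCGCTaaatcctctgtggcccctTGCT
Foxo3 intron 2, chr10:41989208-41989237: caagctccTGCTtcaagTGCTctctttggc
Both had tags of both genotypes, 1 WT and 2 *Mbnl1* KO at Foxo1 and 2 and 1 at Foxo3, and both windows hold 2 motifs.

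Some places recurred between the genotypes and others did not. Over the 9 genes, the 45 WT and 115 *Mbnl1* KO start positions had 12 in common, 26.7% of the WT and 10.4% of the *Mbnl1* KO positions, beside 25% and 13.4% over all protein-coding genes, and no single start position held more than 3 tags of 1 genotype. At Foxo1, 6 of 17 WT and 30 *Mbnl1* KO start positions were shared, and at Foxo3 4 of 13 and 33. In the coding sequence of Foxo1 all 3 *Mbnl1* KO tags, with 1083 reads, lay at 1 place in exon 2, where WT had 0. The last 100 nt of Foxo3 held 0 WT and 7 *Mbnl1* KO tags at 3 start positions, an interval from 1.04 upward, and those of Foxo1 held 0 of either. This window was chosen after the values were seen, and the last 100 nt of all protein-coding genes together had a ratio of 2.85 (2.68 to 3.03).

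**Figure D3:**
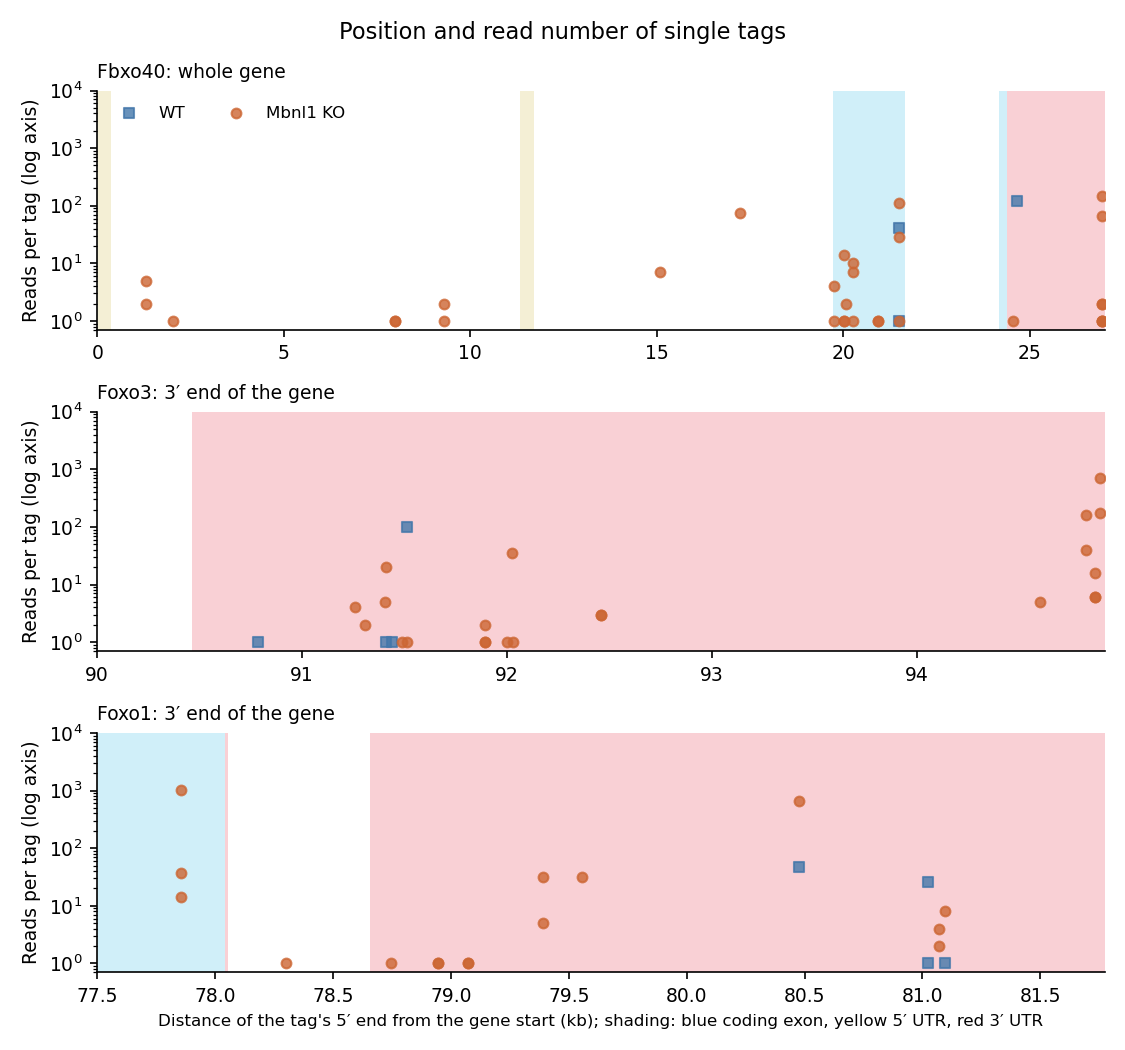
Reads per tag (log axis) against the distance of each tag's 5′ end from the gene start in kb, for the whole of Fbxo40 and the 3′ ends of Foxo3 and Foxo1, with WT tags as squares, *Mbnl1* KO tags as circles and exons shaded by part. At Fbxo40 and Foxo3, 7 *Mbnl1* KO tags and 0 WT tags each fell in the last 100 nt of the gene, whereas the Foxo1 3′ UTR tags ended before it.

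Places where at least 3 tags overlapped, from at least 2 start positions and pooled over the genotypes, were looked at for their sequence. There were 12 in the 9 genes, 5 in 3′ UTRs and 7 in introns, and only 1 of them, in Fbxo40, held at least 5 tags. The 30 bases around the point of highest tag depth were read from the mm9 genome on the gene's strand and searched there for the GC step between pyrimidines that MBNL proteins favour, the same words as in the introns above. The 4 FOXO windows are all those in the 3′ UTRs of both genes, which held the most 3′ UTR tags of the list. Capitals mark the motifs.
Foxo3 3′ UTR, chr10:41904518-41904547: tgagttctCGCCatTGCCtgcactgtagct
Foxo3 3′ UTR, chr10:41905034-41905063: ttcaacctTGCTgtgtgtaCGCTgatcttc
Foxo3 3′ UTR, chr10:41905129-41905158: tgagccatttagcatgcgtgtgagagcgac
Foxo1 3′ UTR, chr3:52153340-52153369: gaaaagacttcatctatgcagccttgtttg
The first Foxo3 window had 0 WT and 3 *Mbnl1* KO tags and the second 1 and 2, and each holds 2 motifs. The third Foxo3 window, with 1 WT and 2 *Mbnl1* KO tags, and the Foxo1 window, with 1 and 3, hold none of the motifs, which says only that these letters are not there.

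Fbxo40, a muscle F-box protein that targets the insulin receptor substrate Irs1 for degradation, had the highest ratio of the members with at least 20 tags. At ENSMUSG00000047746.8 (chromosome 16 from 36963546 to 36990553, minus strand) there were 3 WT and 31 *Mbnl1* KO tags (ratio 7.45, 2.32 to 38.1), higher than at 97.7% of the 3888 genes that reached 20 tags. The WT tags had 162 reads and the *Mbnl1* KO tags 499 reads, with 1 WT and 15 *Mbnl1* KO tags of a single read. None of them were single-base tags, and the ratio was 5.08 (1.59 to 26.0) with such tags left out of the totals. With tags of at least 2 reads it was 2.99 (0.702 to 26.8), an interval that includes 1.

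Tags of Fbxo40 lay mostly in its exons. The coding part of exon 3 of 4 held 2 WT and 14 *Mbnl1* KO tags, which made the coding sequence ratio 5.05 (1.16 to 45.7). The 3′ UTR held 1 and 8 tags, a ratio of 5.77 (0.773 to 256), and the introns 0 and 9. The interval of the intron ratio runs from 1.42 upward.

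The genotypes met at 1 place in Fbxo40 exon 3, where 2 WT tags with 42 reads and 3 *Mbnl1* KO tags with 140 reads shared their 5′ end. The densest place of the whole list was in exon 4, chr16:36963584-36963628, where 7 *Mbnl1* KO tags from 5 start positions, with 219 reads and 3 tags of a single read, overlapped in the 3′ UTR 56 nt from the gene end. WT had 0 tags there, beside 14.7 per 1000000 in *Mbnl1* KO. The place met the minimum of 5 tags through *Mbnl1* KO tags alone, so a ratio taken there follows from the choice and none is given. Its window is shown as the only cluster of at least 5 tags.
Fbxo40 3′ UTR, chr16:36963587-36963616: tctTGCTctgaatcccTGCCctggcttccc
It holds 2 of the motifs.

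Fbxo32, the atrogin-1 F-box ligase that rises in atrophying muscle, showed another distribution. At ENSMUSG00000022358.5 (chromosome 15 from 58011634 to 58046433, minus strand) there were 5 WT and 16 *Mbnl1* KO tags (ratio 2.31, 0.808 to 8.05). All 5 WT and 15 of the *Mbnl1* KO tags were intronic, and the annotated 3′ UTR of 1387 nt held 0 in either genotype, which allows up to 3 tags in each. Of the intronic *Mbnl1* KO tags, 8 lay in intron 6. Intron 4 held 4 WT and 4 *Mbnl1* KO tags, and 3 of those WT tags were single-base tags over a run of A. Both places with at least 3 overlapping tags are shown, the run of A and a place with *Mbnl1* KO tags only.
Fbxo32 intron 4, chr15:58026941-58026970: ctcaaaacaaaaaaaaaaaaaaaaaatcaa
Fbxo32 intron 2, chr15:58038008-58038037: aaggttcagatTGCTtcgggtgaagaaaat
The intron 4 place had 3 WT and 0 *Mbnl1* KO tags and the intron 2 place 0 and 3. With single-base tags left out, Fbxo32 had 2 WT and 16 *Mbnl1* KO tags and a ratio of 3.94 (0.925 to 35.3).

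The MuRF proteins Trim63, Trim54 and Trim55 are RING finger ligases of the sarcomere, and Trim54 (MuRF3) and Trim55 (MuRF2) also bind microtubules. Trim63 (ENSMUSG00000028834.7, chromosome 4 from 133871035 to 133885544, plus strand) had 3 WT and 8 *Mbnl1* KO tags (ratio 1.92, 0.461 to 11.3). The places did not coincide. The WT tags, with 6 reads in all, lay at 1 place in exon 3 of 9, whereas *Mbnl1* KO had 3 tags with 1581 reads at 1 place in the 3′ UTR, 3 with 1080 reads at 1 place in intron 7 and 2 in intron 6. Trim54 (ENSMUSG00000062077.7, chromosome 5 from 31419085 to 31440003, plus strand) had 0 WT and 2 *Mbnl1* KO tags, both under the 3 tags that a count of 0 allows, and no fold is given.

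Trim55 (ENSMUSG00000060913.5, chromosome 3 from 19544460 to 19591599, plus strand) had 5 WT and 15 *Mbnl1* KO tags (ratio 2.16, 0.747 to 7.61), and all 20 were intronic. The annotation gives it no 3′ UTR. All 5 WT tags rested on a single read each and 2 were single-base tags, whereas the *Mbnl1* KO tags had 8449 reads. Intron 9 held 4 WT and 8 *Mbnl1* KO tags and intron 8 held 0 and 3. Both places with at least 3 overlapping tags are shown.
Trim55 intron 8, chr3:19573320-19573349: gtatcttttgttcctgagtacagtgtagaa
Trim55 intron 9, chr3:19586966-19586995: ttggaaacTGCTtctgattcttggcTGCTa
Each had 0 WT and 3 *Mbnl1* KO tags, with 4376 reads in intron 8 and 3056 in intron 9, and the second window holds 2 motifs. Across the 9 genes, 14 of 96 intronic *Mbnl1* KO tags lay within 300 nt of an exon, 6 of them in Trim55, 5 in Fbxo32, 2 in Trim63 and 1 in Foxo1, and 0 of 35 in WT. The 14 tags came from 9 start positions. The *Mbnl1* KO share of 14.6% (8.21 to 23.3) had an interval that holds the 13.0% over all protein-coding genes. In WT the 0 of 35 had an interval of 0 to 10%, below the 11.6% over all genes. Of the 35, 16 lay in Foxo1 and 9 in Foxo3. At those genes 1 of 26 and 0 of 20 intronic *Mbnl1* KO tags lay within 300 nt of an exon.

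Mstn, the muscle growth inhibitor, was nearly without tags. At ENSMUSG00000026100.5 (chromosome 1 from 53118507 to 53124923, plus strand) each genotype had 1 tag in the 3′ UTR, with 585 reads in WT and 1 read in *Mbnl1* KO, and the ratio of 0.721 has an interval from 0.00918 to 56.6. Acvr2b, its receptor, had 1 WT tag in the 3′ UTR and 5 *Mbnl1* KO tags in introns (ENSMUSG00000061393.6, chromosome 9 from 119311562 to 119342619, plus strand), a ratio of 3.60 (0.403 to 170). The WT tag was a single-base tag of 1 read, so without such tags no ratio is left. Of the *Mbnl1* KO tags 4 lay in intron 1, where 3 overlapped in the window below, which holds 2 motifs.
Acvr2b intron 1, chr9:119317216-119317245: ggaagTGCCtgttgttggggctcTGCCtgc

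Over the 9 genes together, the 3′ UTR took 11 of 52 WT tags, 21.2% (11.1 to 34.7), and 46 of 162 *Mbnl1* KO tags, 28.4% (21.6 to 36.0), as exact 95% binomial intervals. The coding sequence took 11.5% (4.35 to 23.4) and 12.3% (7.71 to 18.4), and introns 67.3% (52.9 to 79.7) and 59.3% (51.3 to 66.9). For each region the intervals of the genotypes overlapped. Over all protein-coding genes the 3′ UTR took 16.2% of WT and 29.5% of *Mbnl1* KO tags. The member ratio was 3.01 (1.54 to 6.45) in 3′ UTRs, beside 2.94 over all genes, 2.40 (0.931 to 7.31) in coding sequence, beside 2.68, and 1.98 (1.33 to 3.00) in introns, beside 1.24. The ratio of all genes fell inside the member interval in 3′ UTRs and coding sequence and below it in introns. Single-base tags were 6 of the 35 intronic member tags in WT and 2 of the 96 in *Mbnl1* KO. With them left out, the intron ratio was 1.59 (1.04 to 2.51) in the members and 1.12 over all genes, which then fell inside the member interval, and the 3′ UTR ratio was 2.21 (1.10 to 4.93) beside 2.08.

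The motifs were also counted in the tags themselves. Of the member tags, 19 of 52 in WT held a motif, 36.5% (23.6 to 51.0), and 89 of 162 in *Mbnl1* KO, 54.9% (46.9 to 62.8). The shares over all protein-coding genes, 34.4% and 50.1%, fell inside these intervals. Without single-base tags the member shares were 42.2% (27.7 to 57.8) and 56.0%, and those of all genes 45.8% and 53.5%. Of the 12 member windows, 8 held at least 1 motif, 3 of the 5 in 3′ UTRs and 5 of the 7 in introns, beside 28.9% of all 30-base windows of the member gene bodies and 27.9% of all windows in protein-coding 3′ UTRs. In the other genes that reached 20 tags, windows were taken at clusters of at least 5 tags. Only 1 of the 12 member places met that minimum, so the shares are not on the same basis. Those windows held a motif in 51.9% of 6274 in all. This was 69.7% of 2815 in 3′ UTRs, 58.0% of 654 in coding sequence and 31.7% of 2722 in introns, where 1418 were mostly single-base tags. A match is a description of the letters, not a binding site.

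A list of 44 other genes of the pathway was counted in the same way. At least 20 tags were found at 16 of them, and 9 of the 16 had an interval above 1, beside 38.6% of all such genes, and 0 had one below 1, beside 3.83%. Their median ratio was 2.37, from 0.679 to 6.31, beside 1.75 over all genes. The 3 with most tags among those above 1 were Nedd4, a HECT ubiquitin ligase (42 WT and 211 *Mbnl1* KO tags, ratio 3.62, 2.59 to 5.17), Sqstm1, the autophagy adaptor p62 (21 and 110 tags, 3.78, 2.35 to 6.34), and Ubr4, a ligase of the N-degron route (20 and 62 tags, 2.23, 1.33 to 3.91).

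By role, 3 of the 4 other ligases and adaptors with at least 20 tags had an interval above 1, and 4 of 7 proteolysis and autophagy genes. Of all genes with that many tags 38.6% did. Of the activin and myostatin route, 2 of 4 did, the receptor genes Acvr2a and Acvr1b. The other receptor genes of that list had under 20 tags and intervals that include 1. These were Acvr1c (ratio 1.24, 0.449 to 3.71) and Tgfbr1 (1.56, 0.554 to 5.01). Acvr2a, the other type II activin receptor, had 4 WT and 35 *Mbnl1* KO tags (ratio 6.31, 2.26 to 24.4), and the type I receptor gene Acvr1b had 9 and 42, a ratio of 3.36 (1.61 to 7.86). Among the FOXO family and its partners only Ppargc1a, a coactivator that opposes atrophy, had at least 20 tags, 17 in WT and 16 in *Mbnl1* KO, a ratio of 0.679 (0.321 to 1.43).

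**Figure D4:**
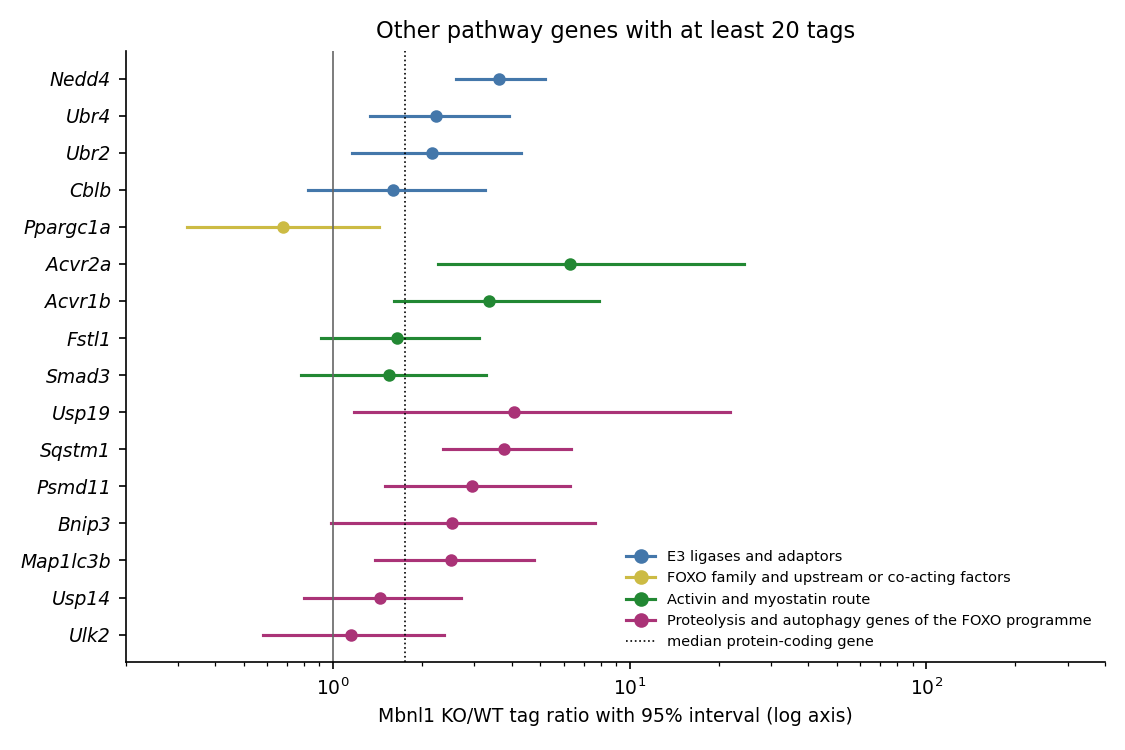
Scaled *Mbnl1* KO/WT tag ratio with its 95% Clopper-Pearson interval (log axis) for the 16 other pathway genes with at least 20 tags, coloured by role, with the median protein-coding gene (1.75) dotted. Intervals of 9 of the 16 genes lay above 1, beside 38.6% of all genes with at least 20 tags. That of Ppargc1a included 1 at a ratio of 0.679.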

How the data were processed

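Mbnl2 HITS-CLIP of quadriceps was analysed as 1 merged table per genotype (3 mice each). The authors filtered reads by quality, aligned them to mm9 with BWA (version not given in the sources used here), dropped short sequences and likely PCR duplicates, and merged mice and RNase conditions. Each deposited row was taken as 1 tag, and its count, as the authors left it, is a raw number of reads. Rows of identical position recur within a genotype. Collapsing identical tags leaves 317893 of 343554 tags in WT and 407846 of 476543 in *Mbnl1* KO. For the 9 genes it leaves 45 and 122 tags. Sequences under 20 nt are described as discarded, yet 855 WT and 920 *Mbnl1* KO tags are shorter, 0 of them in the 9 genes.

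A tag counted when it overlapped a region on its strand, assigned in the order 3′ UTR, coding sequence, 5′ UTR, intron. Ratios were scaled by table totals (factor 0.721). Intervals are exact at 95% (Clopper-Pearson or Poisson) and cover counting error only, since the mice are merged, and may be too narrow where tags are PCR copies of 1 molecule. A count of 0 allows up to 3 tags. Sequences and coordinates are of mm9. Python 3.11.15, numpy 2.4.6, pandas 2.3.3, scipy 1.17.1, pysam 0.24.0, samtools 1.23.1 and matplotlib 3.10.9 were used, and counting was tested on simulated data. The members and lists were chosen with earlier results of these data known. Named were all 9 members, clusters of at least 5 tags, and at most 3 other pathway genes per direction by tag number among those with at least 20 tags and an interval apart from 1. Besides the 44 other pathway genes counted, 1 listed gene is not reported here. Acvr2a, Acvr1b, Acvr1c, Tgfbr1, Ppargc1a, the clusters of 3 or 4 tags and the windows downstream of genes fall outside this rule and were chosen after their values were seen. Alternatives were other scalings, tag filters, collapsing, midpoint counting and thinning of reads. With 1 table per genotype no p-value was computed.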

Additional observations from a re-analysis of the deposited data

Results flagged for a closer look

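The 10 kb downstream of Fbxo32, outside its annotated body (chromosome 15 from 58001634 to 58011633, minus strand), held 0 WT and 12 *Mbnl1* KO tags on the gene's strand, more than the 3 tags that a count of 0 allows in WT. This region is outside the gene bodies compared above. The level was 25.2 tags per 1000000 in *Mbnl1* KO, and the interval of the ratio runs from 2.0 upward. The 12 tags came from 8 start positions between 899 and 3936 nt past the annotated end, with 239 reads, 5 tags of a single read and 0 single-base tags, and no other annotated gene lies on that strand in the window. Without single-base tags the interval ran from 1.37 upward, and with tags of at least 2 reads there were 0 and 7 tags and an interval from 0.538 upward, which includes 1. The place with 3 overlapping tags, 1082 nt past the annotated end, is shown because the annotated 3′ UTR of Fbxo32 itself held 0 tags, with the same motifs in capitals.
Fbxo32 downstream, chr15:58010537-58010566: gTGCTtgcaggttctccatgacccttggtg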

How the results depend on the processing

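No paired analysis was possible because the 3 mice of a genotype are merged in 1 table, and for the same reason no replicate could be left out. The ratio of the 9 genes together, 2.25, was 1.29 (0.936 to 1.79) when scaled by the median protein-coding gene, which leaves members relative to all genes. It was 1.63 (1.02 to 2.72) with tags of at least 2 reads, 1.37 (0.854 to 2.28) when single-base tags were removed too, 3.43 (2.16 to 5.65) with tags of at least 25 nt, and 3.29 (2.26 to 4.81) after the *Mbnl1* KO reads were thinned to the WT number. In the other 6 alternatives it stayed within its main interval, from 1.74 (single-base tags left out) to 3.12 (no scaling). Counted over all 9 genes, the number with an interval above 1, 2 in the main count, was 5 without scaling, 4 with thinned reads, 3 with tags of at least 25 nt, 1 when scaled by the median gene, 1 with single-base tags left out, 0 with tags of at least 2 reads and 0 with both filters. These counts have no tag minimum. Among all genes with at least 20 tags the share was 38.6% in the main count. In the same order of settings it was 59.2%, 57.4%, 63.0%, 11.8%, 26.5%, 18.7% and 11.1%. Foxo3 lost its interval above 1 when scaled by the median gene, at 1.27 (0.681 to 2.51). Its ratio with tags of at least 2 reads was 1.68 (0.679 to 4.98). Fbxo40 ranged from 2.51 (0.589 to 22.5, both filters) to 16.4 (2.64 to 678, tags of at least 25 nt). Foxo1 ranged from 0.712 (0.338 to 1.60, both filters) to 3.12 (1.33 to 8.47, tags of at least 25 nt). Its direction therefore changed with the filter. Of the values of single genes under these alternatives, 77 stayed within the main interval and 4 moved out of it (settings that leave a gene without a WT tag give no ratio). The 3′ UTR shares stayed within their main intervals in all 9 alternatives for each genotype. Clusters numbered 12 at 3 tags, 1 at 5 tags and 0 at 10 tags. The cause of these shifts was not tested. Low counts limit what can be said of 4 of the 9 genes, which had under 20 tags.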

Other observations

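Tags beyond the annotated end were also found at other members. Acvr2b, whose annotated 3′ UTR is 40 nt long, had 2 WT and 10 *Mbnl1* KO tags in the next 10 kb, a ratio of 3.60 (0.768 to 33.8) whose interval includes 1. Of these, 1 WT and 2 *Mbnl1* KO tags overlapped 1295 nt past the end, and 0 WT and 4 *Mbnl1* KO tags 6095 nt past it. Each place had 2 start positions. Trim55, with no annotated 3′ UTR, had 1 WT and 5 *Mbnl1* KO tags there, a ratio of 3.60 (0.403 to 170). The 5 *Mbnl1* KO tags overlapped 392 nt past the end and came from 2 start positions. With identical tags collapsed, 1 WT and 2 *Mbnl1* KO tags were left, a ratio of 1.56 (0.0812 to 92.0). These places are shown because they lie where the annotation gives little or no 3′ UTR, with the motifs in capitals.
Acvr2b downstream, chr9:119343900-119343929: atacacaTGCTtTGCTgtgtggcttccgag
Acvr2b downstream, chr9:119348700-119348729: cttctcTGCTttgcagcCGCCtgtcttgga
Trim55 downstream, chr3:19591977-19592006: taggaCGCTtgTGCCtttTGCTtttctcct
The Acvr2b windows hold 2 motifs each and the Trim55 window 3. Trim54 had 4 WT and 4 *Mbnl1* KO tags in its 10 kb, a ratio of 0.721 (0.134 to 3.87), and the remaining members had at most 2 tags in all.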
